A study of Mus musculus with 50 samples.

Results

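Il1rl1, Areg, Il18r1, Il18rap, Il1rap, Il1r1 and Il1r2 were taken by symbol from the table of read counts, which gave 7 of its 55011 gene symbols, and were followed over 16 groups of sorted mouse CD4 T cells. Il1rl1 encodes ST2, the receptor of the alarmin IL-33. Areg encodes amphiregulin, a growth factor that binds the EGF receptor and is known for its part in tissue repair. Il18r1 and Il18rap encode the binding and the accessory chain of the IL-18 receptor. Il1r1 encodes the signalling receptor of IL-1, and Il1r2 a decoy receptor that binds IL-1 without signalling. Il1rap encodes the accessory chain that both ST2 and IL-1R1 need in order to signal through MyD88. Regulatory T (Treg) cells of non-lymphoid tissues are known to carry more ST2 than those of lymphoid organs, and visceral fat is the best known site of ST2+ Treg cells. Both IL-33 and IL-18 are known to induce amphiregulin in Treg cells.

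The study sorted Treg progenitors from the thymus and Treg cells from 5 peripheral sites, with 50 RNA-seq libraries in all. Thymus cells came from B6.Cg-Foxp3tm1Kuch/J males at postnatal day 5, 12 or 49. They were sorted as P1, which is CD4+CD8-CD25+Foxp3-, or as P2, which is CD4+CD8-CD25-Foxp3+, with 3 libraries in each of these 6 groups. Peripheral CD4+Foxp3-GFP+ cells came from lung, liver, spleen, visceral adipose tissue (VAT) and ear skin of 20-week-old males that carry the allele Foxp3tm3(HBEGF/GFP)Ayr, with 3 libraries per group in each arm and 4 in VAT. In this strain a diphtheria toxin receptor (DTR) and GFP are expressed from the Foxp3 locus, so that toxin depletes Treg cells. The titles name a DT and a PBS arm, whereas the series text has DTR+ and DTR- littermates both injected with toxin on 3 consecutive days at 12 weeks of age and rested for 8 to 9 weeks. The arms are therefore called DT-labelled and PBS-labelled, and the strain and the genotype label WT are the same in both. Each library came from 500 to 1000 double-sorted cells. Nothing in the labels states that a group's libraries are from different mice. The p-values therefore rest on the spread among these samples, some or all of which could be technical.

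Depth ran from 2521078 to 6981037 counts per library. Foxp3 stood at 4.17 to 17.8 CPM (counts scaled to the depth of the library) in the P1 libraries, at 260.5 to 810.4 in P2 and at 138 to 501 in the periphery, which fits the sort gates. T cell markers were high in every library, which shows T cells but not Treg cells in particular. Some libraries stood apart. The VAT DT-labelled library 7 had a summed level of 6 fibroblast markers of 555 CPM, against at most 28.5 in any other library. Macrophage markers summed to 28.8, 113 and 151 CPM in the day 49 P2 libraries, against 35 or less in the other thymus libraries. The day 12 P1 libraries had 27911 to 31478 genes detected, against 18209 to 28765 in the other thymus groups. Spleen PBS-labelled library 1 had 138 CPM of Foxp3, against 300 and 333 in its replicates, and the highest chi-square per degree of freedom against them, 52.5 and 66.5. Without it all 16 calls of the 7 genes against spleen in that arm remained. Without VAT library 7 the calls against spleen of Il1rl1, Areg and Il18rap remained, at log2 fold changes of 4.09, 6.34 and 1.98.

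Of the 7 genes, 5 lie on mouse chromosome 1 and form the IL-1 receptor cluster. They span 477.627 kb in mm10 on the plus strand, in the order Il1r2 (chr1:40074079-40125231), Il1r1 (chr1:40225080-40317257), Il1rl1 (chr1:40429570-40465415), Il18r1 (chr1:40465552-40500854) and Il18rap (chr1:40515362-40551705). Il1rl2, the IL-36 receptor, lies between Il1r1 and Il1rl1. Il1rl1 ends 0.136 kb before Il18r1 begins, on the same strand. The sources used here do not give how reads that run past a gene's end were counted, so these neighbours can share reads. Areg lies on chromosome 5 (chr5:91139599-91148432) and Il1rap on chromosome 16 (chr16:26581704-26730117), both on the plus strand. Il1r2 and Il1rap overlap antisense gene models, and their counts are uncertain to that extent because the strand setting is not given in the sources used here.

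**Figure D1:**
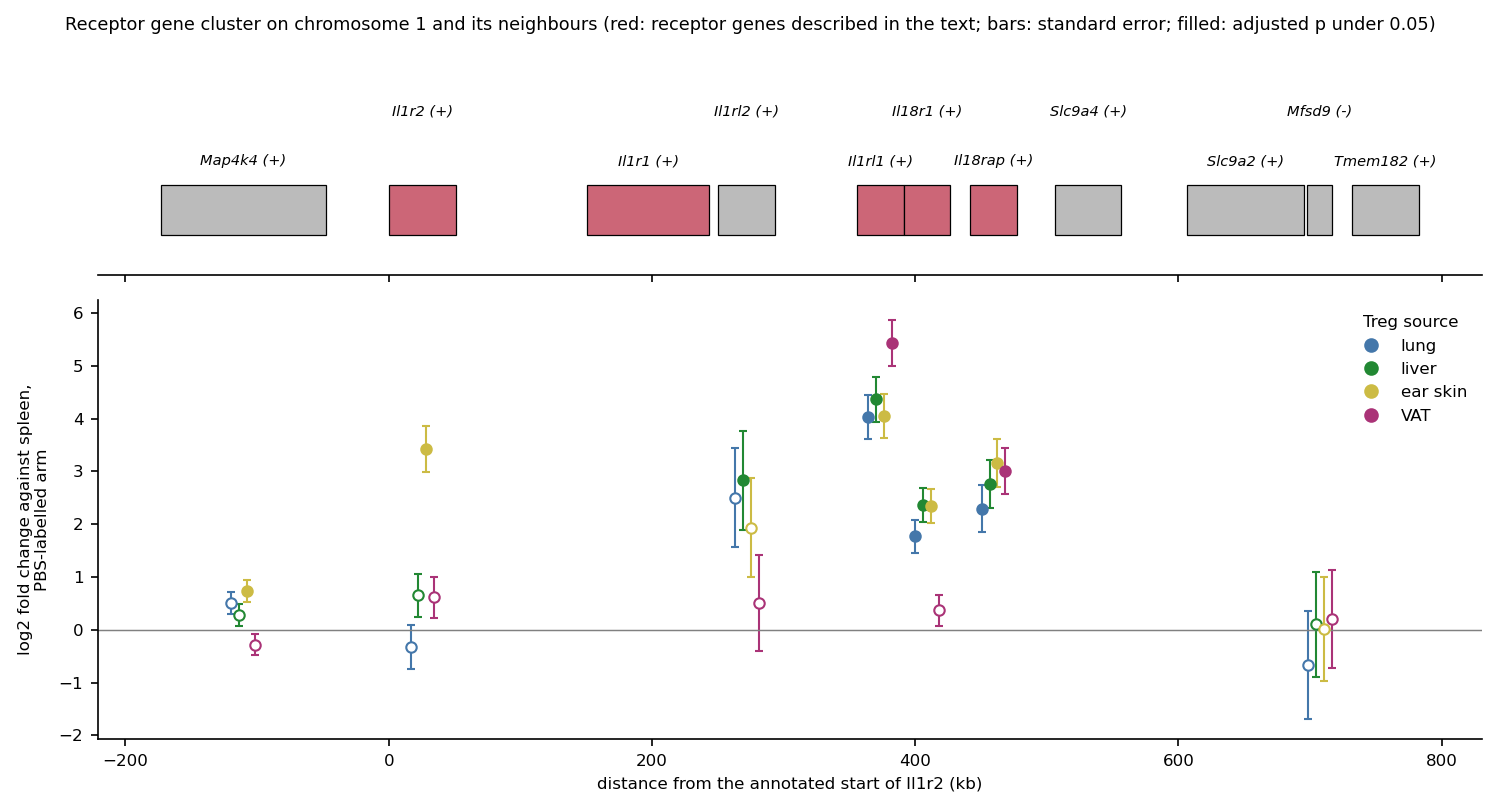
Map of the IL-1 receptor cluster on mouse chromosome 1, with distance from the start of Il1r2 in kb on the x axis and one box per gene of GENCODE M21. Il1rl1 and Il18r1 are separated by 0.136 kb, and Il18rap follows 14.507 kb after Il18r1.

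The 250 bases before the start of Il1rl1, Il18rap and Areg are printed because these are the genes that rose in all 4 non-lymphoid tissues, below. The sequences are RefSeq's for GRCm38.p6, the same build as mm10, on the plus strand from 5′ to 3′, and each window overlaps no annotated exon. Capitals mark matches to 4 motifs on either strand. The motif of the GATA factors was searched as AGATAA, also allowing T in place of the first letter and G in place of the last. The motif of AP-1 was searched as TGACTCA, the cyclic AMP response element (CRE) as TGACGTCA, and an NF-kB-like motif as GGAANTTCC. No AP-1 match can lie inside a CRE match.
Il1rl1, chr1:40429320-40429569: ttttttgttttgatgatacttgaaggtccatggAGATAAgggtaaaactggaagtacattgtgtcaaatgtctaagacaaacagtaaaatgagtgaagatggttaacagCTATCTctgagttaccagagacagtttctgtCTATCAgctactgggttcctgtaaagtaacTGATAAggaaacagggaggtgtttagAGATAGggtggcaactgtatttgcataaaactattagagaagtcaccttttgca
Il18rap, chr1:40515112-40515361: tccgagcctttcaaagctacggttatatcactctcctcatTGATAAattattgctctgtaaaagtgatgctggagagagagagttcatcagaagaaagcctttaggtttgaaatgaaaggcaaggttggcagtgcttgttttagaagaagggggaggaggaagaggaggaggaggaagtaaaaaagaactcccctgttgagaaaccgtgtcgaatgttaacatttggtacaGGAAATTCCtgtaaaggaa
Areg, chr5:91139349-91139598: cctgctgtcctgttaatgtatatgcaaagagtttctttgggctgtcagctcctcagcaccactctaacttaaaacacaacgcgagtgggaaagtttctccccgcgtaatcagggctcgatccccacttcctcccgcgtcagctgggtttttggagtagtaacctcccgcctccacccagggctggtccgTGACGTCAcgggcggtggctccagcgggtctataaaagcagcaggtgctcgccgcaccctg
The Il1rl1 window held 5 GATA matches, which begin 217, 141, 110, 80 and 54 bases before the start. RefSeq has another start for Il1rl1 downstream, and the window before it (chr1:40439379-40439628), not printed, held 1 GATA match. The Il18rap window held 1 GATA match at 210 bases and 1 NF-kB-like match at 19 bases before the start. The Areg window held 1 CRE match at 61 bases before the start. Over 32851 mouse promoter windows of the same length, 26.5% held at least 1 GATA match, 4.46% an AP-1 match, 1.55% a CRE match and 0.813% an NF-kB-like match. These matches describe letters and not bound sites, and the motifs were chosen after the windows had been seen.

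Against spleen, Treg cells of all 4 non-lymphoid tissues had more Il1rl1, Areg and Il18rap RNA in both arms, and Il18r1 was higher in lung, liver and ear skin. Il1r2 was higher in ear skin. Il1rap did not pass the test in any comparison with all libraries in, and Il1r1 was near the limit of detection in most libraries. In the PBS-labelled arm 16 of 28 tests of a gene in a tissue passed an adjusted p of 0.05, and in the DT-labelled arm 17 of 28 did, all of them higher than spleen. The share of all 17731 genes called, in either direction, was 15.8% in lung, 17.0% in liver, 23.5% in ear skin and 14.8% in VAT of the PBS-labelled arm. The DT-labelled arm had 14.4% in lung, 13.0% in liver, 22.1% in ear skin and 8.80% in VAT. The 4 comparisons of an arm share their spleen libraries. A lower level in bulk RNA can mean fewer cells that express a gene or less RNA per cell, and these cannot be told apart.

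Over all 12 comparisons between non-lymphoid tissues, 15 of 84 tests passed, 10 in the PBS-labelled and 5 in the DT-labelled arm. All 15 are named with their genes. The share of all genes called in the PBS-labelled arm was 13.8% for VAT against ear skin, 17.6% for VAT against lung and 11.8% for VAT against liver. It was 14.3% for ear skin against lung, 11.5% for ear skin against liver and 0.677% for lung against liver. In the DT-labelled arm the same comparisons gave 13.0%, 11.7%, 6.71%, 16.3%, 13.3% and 0.496%. No gene of the 7 passed between lung and liver.

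**Figure D2:**
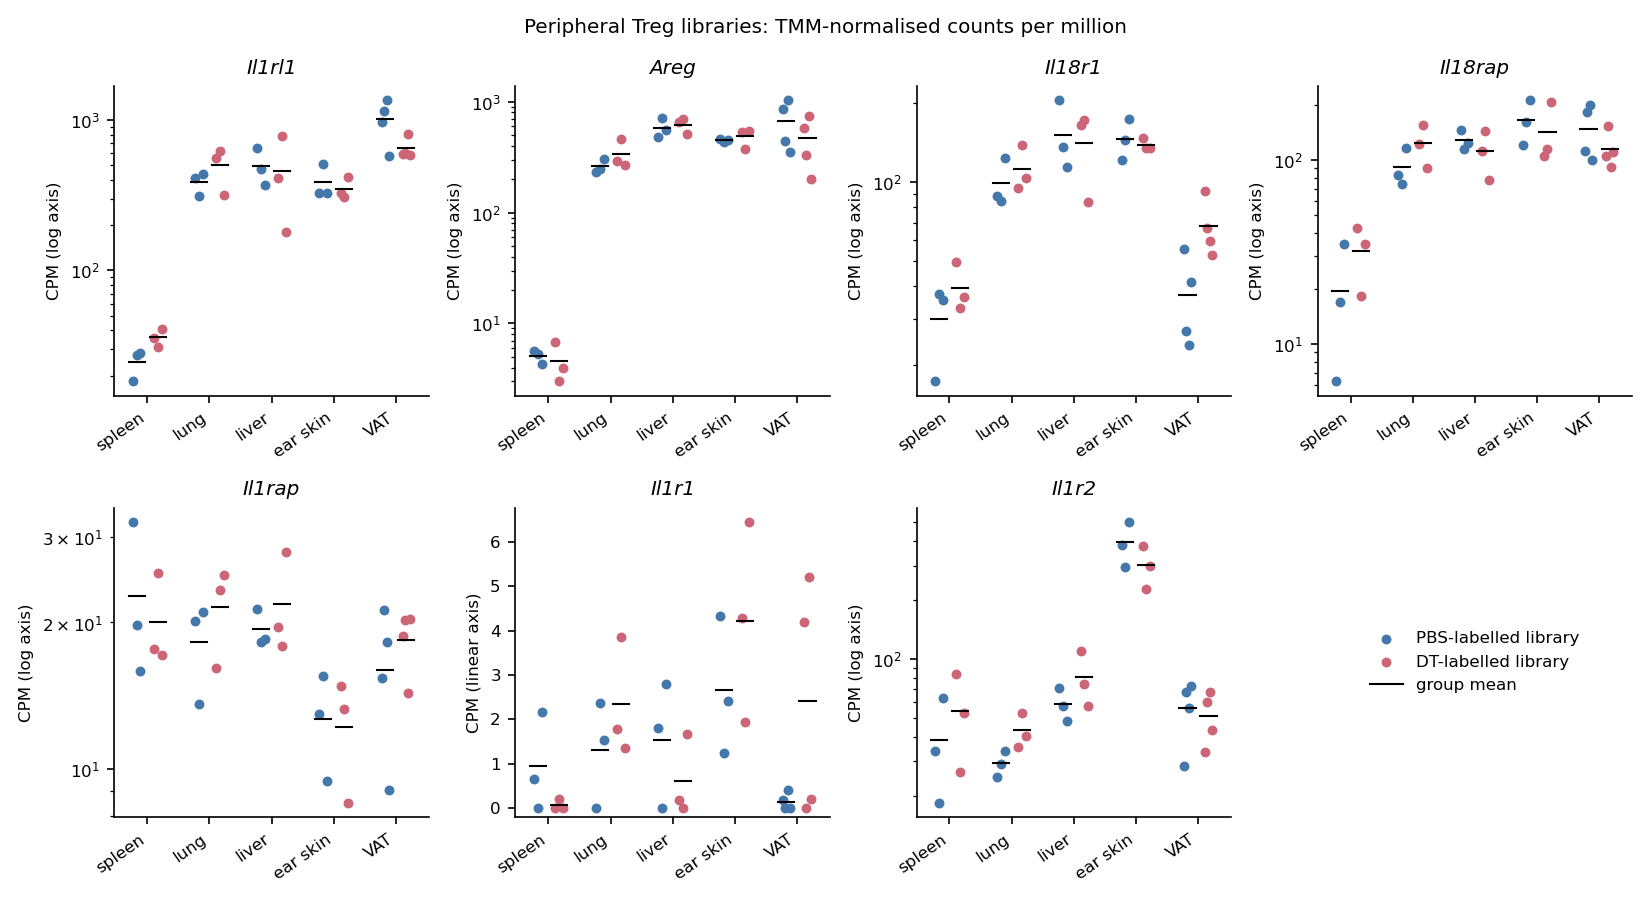
Level of each gene in every peripheral library (CPM with TMM scaling, log axis, but linear for Il1r1), by tissue and arm. Points are libraries and bars are group means. Every spleen library lies below every library of the 4 other tissues for Il1rl1 and Areg.

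The IL-33 receptor gene Il1rl1 was lowest in spleen and highest in VAT. In the PBS-labelled arm its level was 18.3, 27.4 and 28.1 CPM in the spleen libraries. It was 413, 312 and 440.0 in lung, 649.7, 469 and 369 in liver and 329, 507 and 327 in ear skin. The 4 VAT libraries had 971, 1140.4, 1356 and 579.8 CPM. No tissue library came within the range of spleen. The log2 fold change against spleen was 4.03 ± 0.42 (SE) in lung (edgeR adjusted p = 1.18e-07) and 4.37 ± 0.42 in liver (adjusted p = 3.6e-08). It was 4.05 ± 0.42 in ear skin (adjusted p = 5.38e-08) and 5.43 ± 0.43 in VAT (adjusted p = 1.34e-09), or 43.1-fold.

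The DT-labelled arm had the same order of spleen below the tissues. Spleen libraries had 35.8, 30.9 and 41 CPM of Il1rl1 and lung libraries 559.9, 622 and 317. Liver libraries had 413, 785 and 179, ear skin 329.5, 306 and 415 and VAT 596, 605, 813 and 582. Liver was the most variable group, with its lowest library below all lung, ear skin and VAT libraries of that arm. Log2 fold changes against spleen were 3.79 ± 0.41 in lung, 3.68 ± 0.41 in liver, 3.32 ± 0.40 in ear skin and 4.22 ± 0.41 in VAT (edgeR adjusted p at most 8.47e-07).

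Among the 4 tissues of the PBS-labelled arm, VAT had more Il1rl1 than ear skin by 1.38 ± 0.35 on the log2 scale (edgeR adjusted p = 0.00919) and more than lung by 1.40 ± 0.35 (adjusted p = 0.00567). The difference from liver, 1.07 ± 0.34, passed at an adjusted p of 0.044, but that call was lost without any 1 of the liver libraries or of VAT libraries 1, 2 and 3, with an adjusted p of up to 0.208. Lung, liver and ear skin followed in overlapping ranges and did not pass against each other. In the DT-labelled arm no tissue pair passed for Il1rl1. VAT exceeded ear skin there by 0.90 ± 0.34 (adjusted p = 0.0849), lung by 0.43 ± 0.34 and liver by 0.54 ± 0.34.

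Other cells that carry ST2 are group 2 innate lymphoid cells (ILC2), mast cells and basophils, and their markers were summed in each library. The 6 ILC2 markers summed to 80.0 to 219 CPM, without TMM scaling, in VAT and 140 to 152 in ear skin of the PBS-labelled arm, against 13.8 to 22.1 in spleen. Lung had 46.3 to 75.8 CPM and liver 73.3 to 106. Il9r led that sum in VAT and stood there at 64.8 to 129 CPM with TMM scaling, as for the single genes below. The ILC2 marker Il17rb was at 8.15, 5.09, 10 and 3.02 CPM in these VAT libraries, within the range of spleen at 0.329, 6.26 and 12.2. In ear skin it was at 60.3, 49 and 44.6 CPM. The ILC2 cytokine gene Il5 stood at 22.2, 81.6, 26.9 and 12.3 CPM in the VAT libraries of the PBS-labelled arm and at no more than 1.77 in the lung, liver, ear skin and spleen libraries. Il13 was at most 1.23 CPM in VAT, and Klrb1b was at 0 in VAT of the DT-labelled arm. In VAT of the DT-labelled arm Il5 was 0.799, 33.5, 3.02 and 0.863 CPM. Mast cell and basophil markers summed to 5.47 to 31.3 CPM in VAT of the PBS-labelled arm, led by Kit, with Mcpt4, Tpsb2, Mcpt8 and Prss34 at 0 in all 4 libraries. The same markers summed to 33.6 to 51.8 CPM in ear skin of that arm, also led by Kit, and to 8.25 to 18.6 in lung, 4.17 to 7.78 in liver and 2.86 to 7.54 in spleen. The part of these cells in the Il1rl1 levels was not tested.

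Amphiregulin had the highest fold changes against spleen of the 7 genes in all 8 comparisons of the edgeR fit. Areg was at 5.6, 5.29 and 4.32 CPM in spleen of the PBS-labelled arm and at 234, 248 and 304 in lung. It reached 481, 716 and 551 CPM in liver and 464, 437 and 452 in ear skin. The VAT libraries had 856, 443, 1034 and 351 CPM and were the least alike. Spleen stood far below every other library, at 6.82 CPM or less in both arms, and the lowest tissue library, of VAT, had 202 CPM. The log2 fold change against spleen was 5.74 ± 0.49 in lung, 6.87 ± 0.50 in liver, 6.53 ± 0.50 in ear skin and 7.11 ± 0.50 in VAT, the last being 138-fold (edgeR adjusted p at most 5.29e-09).

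Areg in the DT-labelled arm was at 6.82, 2.99 and 3.96 CPM in spleen, 289, 456 and 267 in lung and 652, 705 and 507 in liver. Ear skin libraries had 536, 377 and 545 CPM and VAT libraries 579, 334, 749 and 202. The lung libraries lay below the liver libraries, every other pair of tissues overlapped, and spleen stayed apart. Log2 fold changes against spleen were 6.15 ± 0.50, 7.05 ± 0.51, 6.72 ± 0.51 and 6.67 ± 0.50 in lung, liver, ear skin and VAT (edgeR adjusted p at most 2.71e-09). Between tissues, the only pair that passed for Areg was VAT over lung in the PBS-labelled arm, by 1.37 ± 0.36 on the log2 scale (adjusted p = 0.00821), and it was lost without lung library 1 (adjusted p = 0.0577). Lung against liver, at -1.13 ± 0.37 in the PBS-labelled arm (adjusted p = 0.192), passed when only the compared libraries were fitted (adjusted p = 0.0179), as did ear skin over lung (adjusted p = 0.00183).

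Of the IL-18 receptor chains, Il18r1 rose in lung, liver and ear skin and did not pass in VAT. In the PBS-labelled arm the binding chain gene Il18r1 stood at 17.3, 37.4 and 35.3 CPM in spleen, 88.4, 84.7 and 124 in lung and 205, 136 and 114 in liver. Ear skin libraries had 121, 145 and 173 CPM, and VAT libraries only 55.4, 26.9, 23.8 and 41.6. VAT thus overlapped spleen and lay below every library of lung, liver and ear skin. Log2 fold changes against spleen were 1.77 ± 0.32 in lung (edgeR adjusted p = 0.000137), 2.36 ± 0.32 in liver (adjusted p = 2.19e-06) and 2.35 ± 0.32 in ear skin (adjusted p = 1.29e-06). In VAT the value was 0.37 ± 0.30 (adjusted p = 0.471). VAT was lower than the 3 other tissues, at log2 differences of -1.98 ± 0.29 from ear skin, -1.40 ± 0.29 from lung and -1.99 ± 0.29 from liver (adjusted p at most 0.000603). Il1rl1, which ends next to Il18r1, had its highest mean in this same VAT group. Its lowest VAT library, at 579.8 CPM, was below the highest liver library, at 649.7.

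Il18r1 in the DT-labelled arm was at 49.5, 32.9 and 36.2 CPM in spleen and 94.9, 138 and 103 in lung. It was 165, 173 and 84.1 CPM in liver, 147, 134 and 134 in ear skin and 92, 66.7, 59.6 and 52.4 in VAT. All 4 VAT libraries lay above every spleen library and below every lung and ear skin library. Against spleen the log2 fold change was 1.49 ± 0.31 in lung, 1.84 ± 0.31 in liver and 1.84 ± 0.31 in ear skin (edgeR adjusted p at most 0.000949), and 0.82 ± 0.29 in VAT (adjusted p = 0.0853). The VAT value, at almost the same size, passed with DESeq2 (adjusted p = 0.0397), with limma voom (adjusted p = 0.0364) and in a fit of the compared libraries alone (adjusted p = 0.0156). VAT was lower than ear skin, at a log2 difference of -1.03 ± 0.28 (adjusted p = 0.0147) and lower than liver, at -1.02 ± 0.28 (adjusted p = 0.021). The first call was lost without ear skin library 4 (adjusted p = 0.0539), and the second without any 1 of liver libraries 4 and 5 and VAT libraries 7 and 8 (adjusted p up to 0.134).

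The accessory chain gene Il18rap was higher than spleen in VAT as well, and the difference between the chains was not tested. It stood at 6.26, 17 and 35.1 CPM in spleen of the PBS-labelled arm, the most variable group, and at 82.8, 74.1 and 117 in lung. Liver had 146, 115 and 124 CPM, ear skin 121, 161 and 212 and VAT 112, 181, 199 and 100. All tissue libraries were above all spleen libraries. The log2 fold change was 2.29 ± 0.44 in lung (edgeR adjusted p = 0.000621), 2.76 ± 0.45 in liver, 3.16 ± 0.45 in ear skin and 3.01 ± 0.44 in VAT (adjusted p = 1.7e-05). No pair of the 4 tissues passed for Il18rap.

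DT-labelled spleen libraries had 42.8, 18.2 and 35.1 CPM of Il18rap, lung 123, 156 and 91 and liver 112, 145 and 77.7. Ear skin had 105, 115 and 206 CPM and VAT 105, 153, 91.5 and 111. Tissue and spleen libraries did not overlap here either. The log2 fold changes were 1.93 ± 0.43 in lung, 1.81 ± 0.43 in liver, 2.18 ± 0.43 in ear skin and 1.88 ± 0.41 in VAT (edgeR adjusted p at most 0.00502). The liver call was lost without spleen library 5 (adjusted p = 0.0504).

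**Figure D3:**
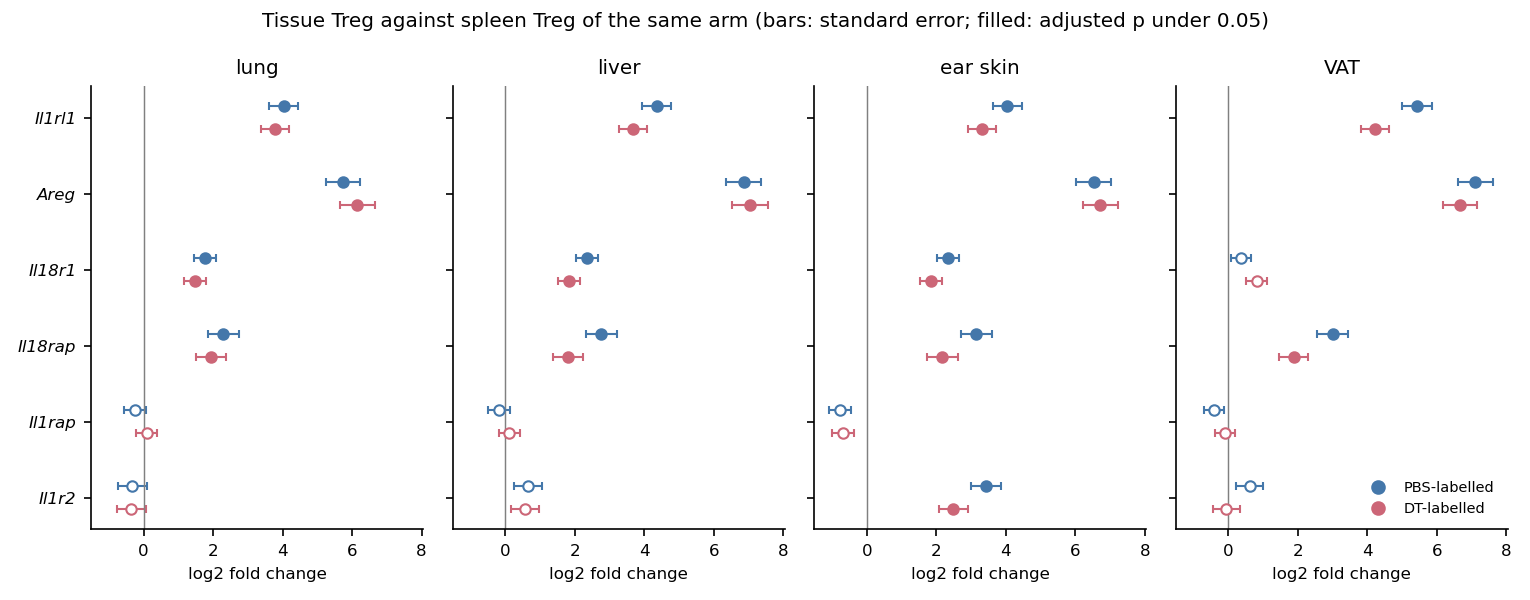
Log2 fold change of each gene except Il1r1 against spleen of the same arm in lung, liver, ear skin and VAT. Bars are 1 SE from the edgeR fit, and filled points passed an adjusted p of 0.05. Areg has the highest values, from 5.74 to 7.11, and Il18r1 in VAT is the value of that gene nearest to 0.

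The decoy receptor gene Il1r2 was high in ear skin. In the PBS-labelled arm ear skin libraries had 382, 295 and 503 CPM. Spleen had 33.9, 18.4 and 63.4 CPM, lung 25, 29.2 and 34, liver 71.5, 57.8 and 48 and VAT 28.4, 67.6, 56 and 72.4. The ear skin libraries were above every other peripheral library of their arm, and the other tissues overlapped spleen. Without spleen library 3, liver and VAT passed as well (adjusted p = 0.0489 and 0.0499). The log2 fold change of ear skin was 3.43 ± 0.43 against spleen (edgeR adjusted p = 1.2e-06), 3.75 ± 0.44 against lung (adjusted p = 9.32e-07) and 2.77 ± 0.42 against liver (adjusted p = 4.05e-05). Against ear skin, VAT was at -2.81 ± 0.38 (adjusted p = 9.94e-06).

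The DT-labelled arm had 376, 227 and 298 CPM of Il1r2 in ear skin and 84.1, 26.3 and 52.9 in spleen. Lung had 35.6, 53.3 and 40.5 CPM, liver 110.4, 74.3 and 57.9 and VAT 33.5, 60.4, 67.6 and 43.2. Ear skin again lay above all other libraries. Its log2 fold change was 2.49 ± 0.42 against spleen (edgeR adjusted p = 7.73e-05), 2.84 ± 0.43 against lung and 1.91 ± 0.41 against liver (adjusted p = 0.00188). VAT was at -2.55 ± 0.38 against ear skin (adjusted p = 4.56e-05). Neutrophils also carry this decoy receptor. The 9 neutrophil markers summed to 6.50 to 38.0 CPM in ear skin of the PBS-labelled arm and 3.35 to 20.8 in the DT-labelled arm, against 0.898 to 3.15 in spleen. Ltf led them in both arms, and the part of neutrophils in the Il1r2 level was not tested.

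The signalling receptor gene Il1r1 was low throughout. Over the 32 peripheral libraries it ranged from 0 to 6.45 CPM. Its highest group was ear skin, with 16, 4 and 9 counts in the PBS-labelled libraries and 11, 7 and 19 in the DT-labelled libraries. The VAT DT-labelled libraries had 21, 0, 19 and 1 counts and disagreed with each other. Against spleen, the 1 call was ear skin of the DT-labelled arm (edgeR adjusted p = 0.0167), where 37 counts stood against 1 in spleen, a ratio of 58.8 after scaling for depth (95% Clopper-Pearson interval of counting error 9.91 to 2383). That call was lost without spleen library 4 or 6, with an adjusted p of up to 0.0775, and in a fit of the compared libraries alone Il1r1 did not pass the filter on low counts. DESeq2 called Il1r1 also in lung and VAT of that arm (adjusted p = 0.0272 and 0.0276), as did edgeR with no filter (0.0289 and 0.0287), and limma voom called it also in lung (0.0414).

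The shared accessory chain gene Il1rap varied little. It lay between 8.49 and 32.3 CPM in the periphery and between 10.2 and 28.1 CPM in the thymus. Its lowest adjusted p against spleen was in ear skin of the PBS-labelled arm, 0.0777, at a log2 fold change of -0.76 ± 0.32. There the ear skin libraries, at 13, 15.5 and 9.4 CPM, were all below the spleen libraries at 32.3, 19.8 and 15.9. The difference passed without spleen library 3 (adjusted p = 0.0377). The accessory chain of ST2 was thus detected in every tissue, while Il1rl1 varied widely.

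Levels of different genes can be compared only per length of transcript. On the scale of CPM per kb of exon, VAT of the PBS-labelled arm had 552 ± 269 (SD, n = 4) of Areg and 147 ± 47.6 of Il1rl1. Il1r2 followed at 29.4 ± 10.3, Il18rap at 21.9 ± 7.33 and Il18r1 at 7.67 ± 3.02, and Il1rap was at 1.41 ± 0.457. In ear skin of that arm Areg was again first and Il1r2 took the place of Il1rl1 after it, with 371 ± 11.4 of Areg, 206 ± 54.7 of Il1r2 and 56.3 ± 15 of Il1rl1 (SD, n = 3). In spleen Il1r2 was first at 20.2 ± 12, with Il18r1 at 6.23 ± 2.29, Areg at 4.17 ± 0.548 and Il1rl1 at 3.57 ± 0.794. Amphiregulin and ST2 led in VAT, and the decoy receptor in spleen.

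The DT- and PBS-labelled arms were compared within each tissue. Titles and series text conflict on the treatment, so the contrast is not read as regrown against undepleted Treg cells. No test of the 31 that passed the filter on low counts was called. Il1r1 passed that filter only in ear skin. Over all genes edgeR called 0.00% in spleen, 0.00% in lung and 0.00% in liver. It called 0.427% in ear skin and 0.116% in VAT. At an unadjusted p under 0.05, 349, 413 and 519 genes stood out in spleen, lung and liver, and DESeq2 called 0, 2 and 16 genes there and limma voom 0 in each. Of the 7 genes, 2 were under an unadjusted p of 0.05, both in VAT, where 942 of all 12067 genes tested were as well. DESeq2 and limma voom called 0 of the 31 tests as well.

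Both of those genes lie side by side in the cluster, and their differences had opposite signs. Il18r1 in VAT was at 36.9 ± 14.6 CPM (SD, n = 4) in the PBS-labelled and 67.7 ± 17.2 (n = 4) in the DT-labelled arm. The ranges overlapped, since the highest PBS-labelled library had 55.4 CPM and the lowest DT-labelled library 52.4. The log2 difference was 0.89 ± 0.27 (edgeR adjusted p = 0.369). Il1rl1 was at 1012 ± 328 CPM in the PBS-labelled and 649 ± 109.7 in the DT-labelled arm. Its log2 difference was -0.61 ± 0.23 (adjusted p = 0.565), and the lowest library of all 8 was PBS-labelled. Both thus missed the threshold. Without VAT library 7 the Il1rl1 difference was -0.76 (adjusted p = 0.459). With no filter on low counts both passed, at log2 differences of 0.88 for Il18r1 (edgeR adjusted p = 0.000674) and -0.63 for Il1rl1 (adjusted p = 0.00101), while DESeq2 and limma voom on filtered counts did not call them.

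The standard errors of the other differences between arms show what the design could detect. For Il1rl1 the log2 difference of DT- minus PBS-labelled was 0.57 ± 0.29 in spleen, 0.31 ± 0.21 in lung, -0.13 ± 0.44 in liver and -0.14 ± 0.18 in ear skin. For Areg it was -0.10 ± 0.53, 0.30 ± 0.19, 0.08 ± 0.16 and 0.12 ± 0.14 in these tissues and -0.49 ± 0.50 in VAT. For Il1r2 in ear skin it was -0.37 ± 0.19 (edgeR adjusted p = 0.591). None of these differences was detectable at this depth and number of libraries, which does not show that the arms were alike.

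**Figure D4:**
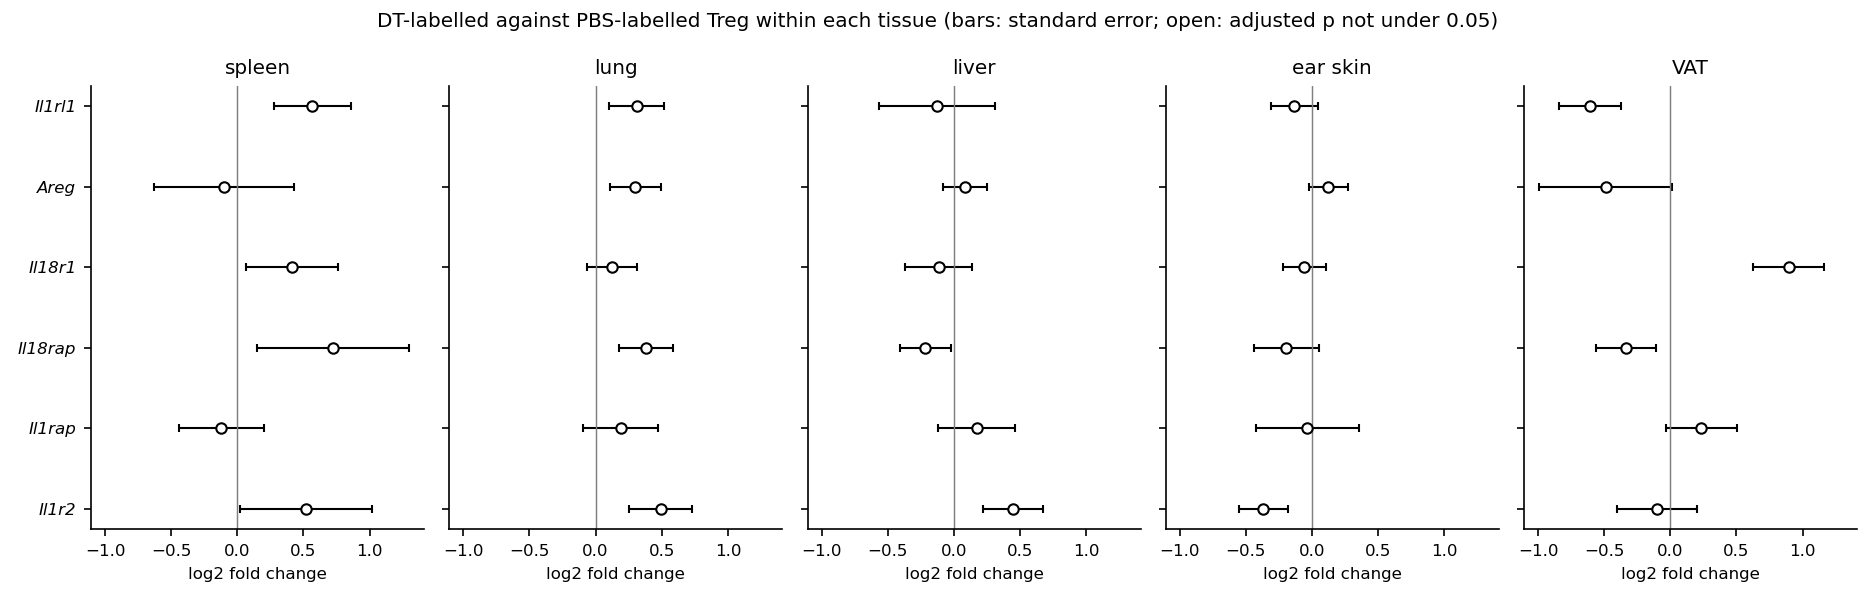
Log2 difference of the DT-labelled minus the PBS-labelled arm for each gene except Il1r1 in each tissue. Bars are 1 SE from the edgeR fit within that tissue. No value passed an adjusted p of 0.05, and Il18r1 and Il1rl1 in VAT lie at 0.89 and -0.61.

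Whether a tissue's difference from spleen itself differed between the arms was tested in the fit of all 32 libraries. None of the 28 tests was called by edgeR, DESeq2 or limma voom, and 2 had an unadjusted edgeR p under 0.05, both in VAT. Over all genes the share called was 0.00% for lung, 0.00% for liver, 0.0395% for ear skin and 0.0169% for VAT. In lung and liver, 805 and 949 genes had an unadjusted p under 0.05, DESeq2 called 1 gene in each and limma voom 0. In VAT 1126 of the 17731 genes tested had an unadjusted p under 0.05. The difference for Il1rl1 in VAT was -1.21 ± 0.50 on the log2 scale (adjusted p = 0.762). The other was Il1r1 (adjusted p = 0.597), whose counts were at or near 0 in most of the libraries compared.

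In the thymus Il1rl1 and Areg were at 8.95 CPM or less in all 18 libraries, Il1r2 at 10.1 or less, Il18rap at 12.9 or less and Il18r1 at 19.5 or less. Il1rap was tested but never called, and Il1r1 failed the filter on low counts. Of 36 tests between ages 7 passed, and of 18 tests between P2 and P1 4 passed. Thymus and periphery came from different strains and ages, so these levels are set side by side without a test.

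The share of all 14696 genes called in the thymus was 18.4% for day 12 against day 5, 23.8% for day 49 against day 12 and 10.8% for day 49 against day 5 in P1. In P2 it was 5.19%, 14.9% and 25.8%. P2 against P1 gave 15.4% at day 5, 41.3% at day 12 and 29.4% at day 49. The difference of the age effect between P2 and P1 gave 3.71% at day 12 and 0.374% at day 49. Between P2 and P1, 1 of 6 tests passed at day 5, 3 of 6 at day 12 and 0 of 6 at day 49. Between ages, in the order of the shares, 0, 1 and 1 of 6 passed in P1, and 1, 2 and 2 of 6 in P2. With 6 tests each, no excess over the all-gene share was read for any of these comparisons. The calls of P2 against P1 at day 12 stand beside a high share.

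**Figure D5:**
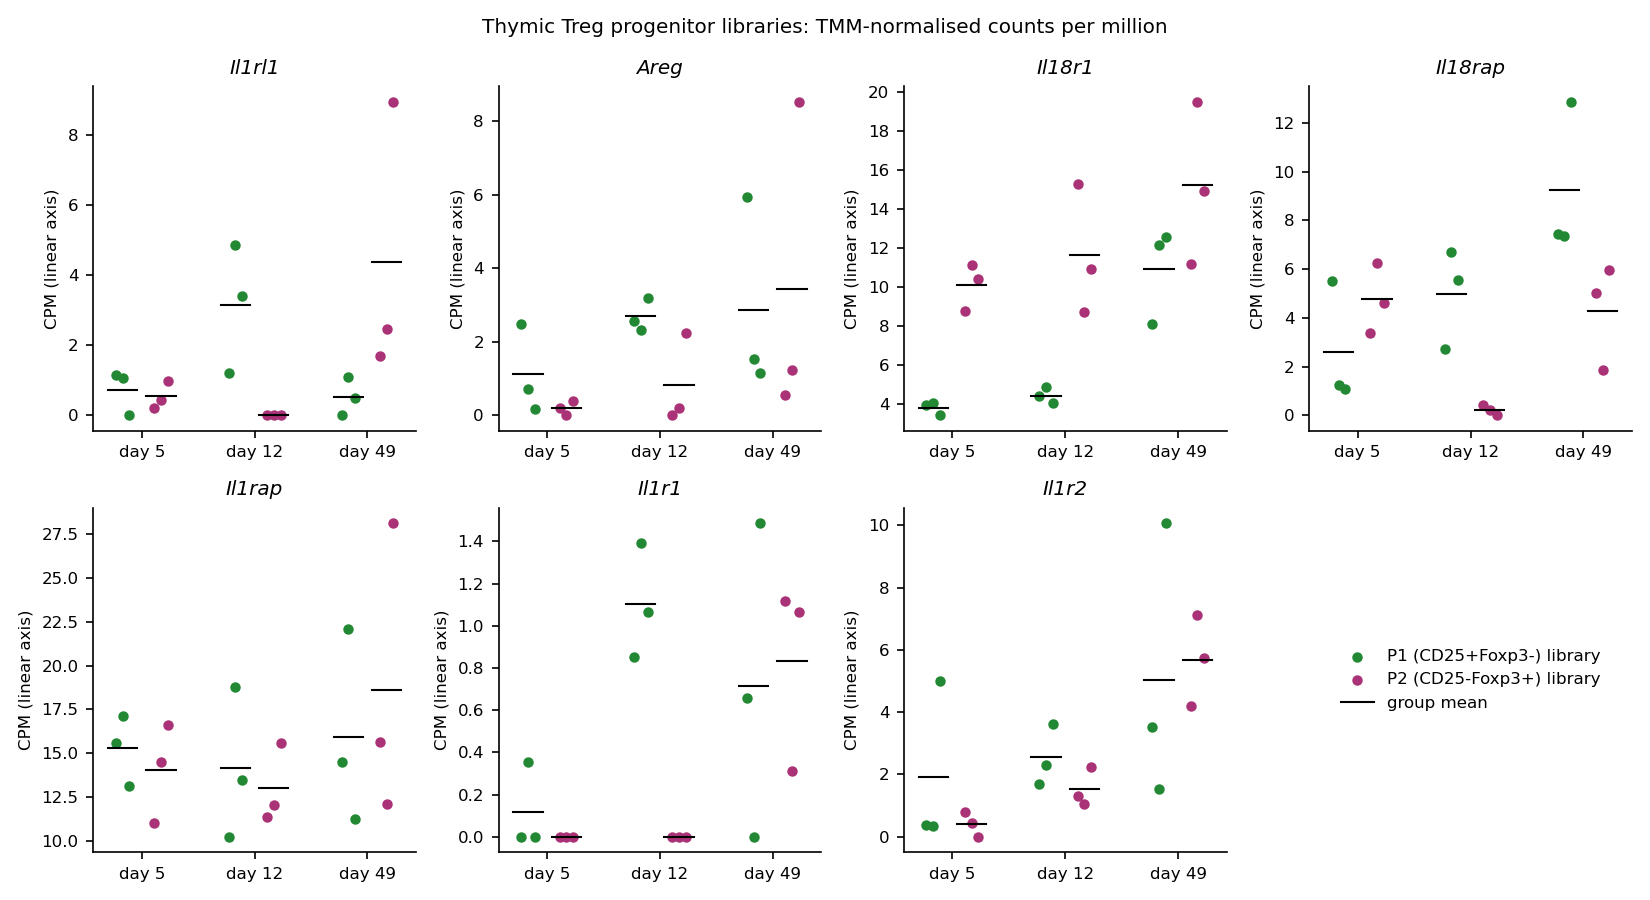
Level of each gene in every thymus library (CPM with TMM scaling), by day and by P1 or P2; points are libraries and bars are group means. Il18r1 is higher in P2 than in P1 at days 5 and 12, and Il18rap is at or near 0 in P2 at day 12.

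Il18r1 was higher in P2 than in P1 at days 5 and 12 and rose with age in P1. P1 libraries had 3.99, 4.07 and 3.44 CPM at day 5, 4.43, 4.87 and 4.05 at day 12 and 8.12, 12.1 and 12.6 at day 49. P2 libraries had 8.79, 11.1 and 10.4 CPM at day 5, 15.3, 8.73 and 10.9 at day 12 and 11.2, 19.5 and 14.9 at day 49. P1 at day 49 lay above both younger P1 groups, and P2 lay above P1 without overlap at days 5 and 12. In P1 the log2 fold change of day 49 was 1.52 ± 0.34 against day 5 (edgeR adjusted p = 0.00398) and 1.25 ± 0.34 against day 12 (adjusted p = 0.0122). P2 exceeded P1 by 1.42 ± 0.34 at day 5 (adjusted p = 0.00497) and by 1.31 ± 0.34 at day 12 (adjusted p = 0.00429). At day 49 the difference was 0.55 ± 0.32 (adjusted p = 0.204), and no age comparison within P2 passed.

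Il18rap, its partner chain, fell in P2 at day 12. P2 libraries had 3.39, 6.24 and 4.63 CPM at day 5, 0.436, 0.208 and 0 at day 12 and 5.03, 1.86 and 5.97 at day 49. P1 libraries had 5.51, 1.24 and 1.1 CPM at day 5, 2.73, 6.72 and 5.55 at day 12 and 7.46, 7.37 and 12.9 at day 49. The day 12 P2 group held 3 counts in all and lay below every other thymus library. The 71 counts of P1 at day 12 gave a ratio of 22.8 to P2 (95% Clopper-Pearson interval of counting error 7.50 to 113), and the 69 counts of P2 at day 5 a ratio of 22.5 (7.37 to 112). In the fit, P2 against P1 at day 12 was at -4.49 ± 0.86 (edgeR adjusted p = 0.000335) and day 12 against day 5 in P2 at -4.38 ± 0.86 (adjusted p = 0.00301). Day 49 against day 12 in P2 was at 4.30 ± 0.87 (adjusted p = 0.00429). The change from day 5 to day 12 differed between P2 and P1 by -5.39 ± 1.08 (adjusted p = 0.0104), the 1 call among 12 such tests. In P1, day 49 against day 5 was at 1.84 ± 0.63 (adjusted p = 0.0646) and passed without day 5 library 1 (adjusted p = 0.0107). Without day 49 libraries 2 and 3 the change from day 12 was 4.43 (adjusted p = 0.00696), and in a fit of the compared libraries alone Il18rap did not pass the filter on low counts there. With so few counts in the day 12 P2 group its fitted values depend on the prior count.

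Il1rl1 was absent from the counts of P2 at day 12, with 0 in all 3 libraries. At that age P1 had 7, 21 and 16 counts, or 1.19, 4.87 and 3.41 CPM. Taking 3 counts over the P2 group as its limit, P1 was at least 14.1-fold higher (edgeR adjusted p = 0.00378). This limit and those that follow leave out the counting error of the higher group. P2 at day 49 had 6, 8 and 42 counts and was at least 23.3-fold higher than at day 12 (adjusted p = 0.0102), with 42 of the 56 counts in library 3. Without library 3 the 14 remaining counts gave a level at least 9.83-fold higher. The change with age was lost without day 49 libraries 2 and 3 (adjusted p = 0.107). In fits of the compared libraries alone Il1rl1 did not pass the filter on low counts in either comparison. Nor did it pass that filter for the change with age without the 3 day 12 P1 libraries. The remaining groups held 0 to 1.14 CPM in each library. P2 at day 49 lay above P1 at day 49 and P2 at day 5 without overlap, at ratios of means of 8.30 and 8.14. With all libraries in, edgeR called neither, and DESeq2 called the first. P1 fell from day 12 to day 49 without overlap, at a ratio of 0.167, which limma voom called and edgeR did not.

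Areg and Il1r2 passed in P2 between days 5 and 49 and depended on few libraries. Areg had 1, 0 and 2 counts in P2 at day 5 and 2, 4 and 40 at day 49, a ratio of 19.6 (95% Clopper-Pearson interval of counting error 6.29 to 98.4, edgeR adjusted p = 0.0351). Day 49 library 3 held 40 of these counts, and without it the ratio was 4.31 (0.921 to 26.6). The call was lost without that library (adjusted p = 0.338) or without any 1 of the day 5 libraries. Il1r2 had 4, 2 and 0 counts at day 5 and 15, 23 and 27 at day 49, a log2 fold change of 3.77 ± 1.03 (adjusted p = 0.0119). It was lost without day 5 library 3 (adjusted p = 0.0568). Without the 3 day 12 P1 libraries Areg was at an adjusted p of 0.0531, and in a fit of the compared libraries alone it did not pass the filter on low counts. Both calls were lost when day 49 libraries 2 and 3, which had the highest macrophage marker sums, were left out. The part of other cells in these levels was not tested.

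Other genes of these pathways were read from lists. Of 10 factors tied to ST2+ tissue Treg cells, 8 were higher than spleen in lung of the PBS-labelled arm and all 10 in liver, ear skin and VAT, with median log2 fold changes of 1.67, 2.57, 3.24 and 2.38. Without spleen library 1 the counts were 6, 9, 10 and 8. The counts of the DT-labelled arm were 8, 8, 10 and 8, the last being 7 without VAT library 7. Of all genes 15.8%, 17.0%, 23.5% and 14.8% were called in these tissues of the PBS-labelled arm. In the DT-labelled arm 14.4%, 13.0%, 22.1% and 8.80% were. No all-gene share is given for the fits without a library, so a general loss of calls there was not separated. The list holds genes known from such cells, so its direction is not independent evidence. Gata3, a transcription factor of type 2 immunity that sustains Il1rl1, had its largest fold change in VAT, at 2.27 ± 0.24 in the PBS-labelled arm (edgeR adjusted p = 9.47e-09) against 0.98 ± 0.24 in lung. Pparg, the nuclear receptor that marks VAT Treg cells, was at 6.62 ± 0.80 in VAT and 3.26 ± 0.83 in ear skin. Rora, a nuclear receptor of tissue Treg cells and ILC2, rose by 2.96 ± 0.24 in VAT to 3.69 ± 0.25 in liver. The medians over all genes lay between -0.06 and 0.14.

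Of 20 genes of MyD88 signalling, 6 passed in lung, 5 in liver, 6 in ear skin and 2 in VAT of the PBS-labelled arm. These are 30%, 25%, 30% and 10%, beside 15.8%, 17.0%, 23.5% and 14.8% of all genes. Without spleen library 1 the counts were 4, 3, 4 and 2, and no all-gene share is given for that fit. In the PBS-labelled arm 4 were higher and 2 lower in lung, 4 and 1 in liver, 3 and 3 in ear skin, and 2 and 0 in VAT. In the DT-labelled arm the counts were 4 and 1, 3 and 0, 2 and 4, and 3 and 0. Irak2, a kinase of the receptor complex, rose in lung (1.06 ± 0.23), liver (1.41 ± 0.23) and VAT (1.42 ± 0.22) of the PBS-labelled arm. The adaptor gene Myd88 and the kinase gene Irak4 fell in ear skin, at -1.01 ± 0.19 and -1.64 ± 0.23. Nfkb1, a subunit of NF-kB, rose in lung, at 1.34 ± 0.15 (edgeR adjusted p = 5.03e-08).

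Sigirr, an inhibitory receptor of the IL-1 family, was lower than in spleen in 3 tissues and did not pass in VAT. In the PBS-labelled arm its log2 fold change was -1.07 ± 0.17 in lung, -0.67 ± 0.17 in liver and -1.07 ± 0.17 in ear skin (edgeR adjusted p at most 0.0056), and -0.09 ± 0.16 in VAT (adjusted p = 0.798). VAT exceeded lung directly by 0.99 ± 0.17 (adjusted p = 3.02e-05). In the DT-labelled arm the values were -0.89 ± 0.17, -0.74 ± 0.17, -0.96 ± 0.17 and -0.16 ± 0.16. Of 4 listed relatives 2 could be tested, the other being Il1rl2, which passed in liver of the PBS-labelled arm. The calls of Sigirr and Il1rl2 in liver of the PBS-labelled arm were lost without spleen library 1 (edgeR adjusted p = 0.0716 and 0.135).

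In the thymus Sigirr was higher in P2 than in P1 at all 3 ages, by 0.68 ± 0.11 at day 5, 1.14 ± 0.11 at day 12 and 0.44 ± 0.11 at day 49 (edgeR adjusted p at most 0.00462). Of the tissue Treg factors 8 could be tested there, and Irf4, Rora and Ccr8 were lower in P2 than in P1 at each age. Batf, a transcription factor of effector Treg cells, was higher in P2 at day 12 (0.86 ± 0.21). Rora differed by -2.76 ± 0.25 at day 5 and rose in P2 from day 5 to day 49 by 1.79 ± 0.26 (adjusted p = 3.12e-05). Without day 49 P2 libraries 2 and 3 these day 49 values were 0.45 for Sigirr against P1 (adjusted p = 0.0235) and 1.78 for Rora against day 5 (adjusted p = 6.25e-05).

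Ligand genes were tested where they passed the filter on low counts. Of 7 IL-1 family ligands and soluble inhibitors in the table, 3 could be tested in the periphery, and none passed against spleen in the PBS-labelled arm. In the DT-labelled arm Il18bp, the IL-18 binding protein, was lower in ear skin (-1.96 ± 0.53) and Il18 higher in VAT (1.64 ± 0.51). The first call was lost without spleen library 4 (adjusted p = 0.0583), and the second without any 1 of spleen libraries 5 and 6 and VAT libraries 5, 6 and 8 (adjusted p up to 0.189). Of 10 EGF family ligands other than Areg, 7 could be tested, and Tgfa and Nrg1 passed in lung, Tgfa in liver, and Egf and Nrg1 in ear skin of the PBS-labelled arm. None passed in VAT of that arm. In the DT-labelled arm 2 of these 7 passed in lung, 3 in liver, 1 in ear skin and 1 in VAT, all higher than spleen. Of 4 EGF receptor family genes 1 was higher in liver of the PBS-labelled arm and 1 in ear skin of the DT-labelled arm. That liver call was lost without spleen library 1. The shares of all genes called in these comparisons stand above. Of 5 genes of ligand shedding, Rhbdf2 was higher in liver (1.43 ± 0.46) and ear skin (2.29 ± 0.46) of the PBS-labelled arm, and Adam10 was lower in that ear skin (-0.83 ± 0.16). In ear skin of the DT-labelled arm 1 of the 5 was higher and 1 lower. Of 8 chromosome 1 neighbours of the receptor cluster, 5 could be tested, and Il1rl2 in liver and Map4k4 in ear skin (0.74 ± 0.21) passed in the PBS-labelled arm. In ear skin of the DT-labelled arm 1 neighbour was higher and 1 lower. Without spleen library 1 the calls of Nrg1 in lung, Tgfa, Rhbdf2 and Il1rl2 in liver, and Egf and Map4k4 in ear skin were lost (adjusted p from 0.0514 to 0.216).

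The genes whose log2 CPM followed each member most closely over the 32 peripheral libraries were ranked among 8501 genes by Pearson correlation. The libraries share tissues and a spleen that stands apart, so the values are descriptions. For Il1rl1 the leading genes were Atf3 (r = 0.964), Sgms1, Junb, S100a10 and Tagln2, with Areg next at 0.939. For Areg they were Nr4a1 (r = 0.977), Junb, Atf3, Nfkbiz and Rgs2. Atf3, Junb and Nr4a1 are immediate early genes, which cells also switch on in response to handling. Il18r1 was followed most closely by Icos (r = 0.899), Cemip2, Dusp4, Ikzf3 and Nfil3. Il18rap was followed by S100a11 (r = 0.952), Acot11, S100a4, Fam129a and Atp2b4, and Il1r2 by N4bp1 (r = 0.877), Lrrfip2, Pkm, Tpi1 and Aopep. Il1rap had no close match (Sdhaf2, r = 0.745).

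Part of this likeness rested on spleen. Over the 26 libraries without spleen Areg and Nr4a1 had r = 0.851 and Areg and Junb 0.795, whereas Il1rl1 and Areg had 0.391. There Il1rl1 had 0.705 with Atf3 and 0.630 with Junb. Il18r1 and Icos kept 0.877, and Il1r2 and Pkm 0.904. Il1rl1 and its neighbour Il18r1 had r = -0.553 over the same 26 libraries. Within the 8 VAT libraries Areg and Nr4a1 had r = 0.982, Il1rl1 and Sgms1 0.959, and Il1rl1 and Areg 0.704. The level of Areg thus followed that of Nr4a1 library by library in VAT, where Nr4a1 ran from 1015 to 4038 CPM. In spleen Nr4a1 stood at 76.1 to 222 CPM. The series text says that tissues were digested by protocols specific to each. The part of tissue handling in the Areg and Il1rl1 levels was not tested.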

How the data were processed

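The deposited file is a matrix of raw read counts, gene symbols by 50 libraries, which the authors made with STAR 2.7.3a on mm10 and featureCounts, per the submitters' processing notes. The sources used here do not give the annotation, strand setting or multimapping rules. Groups and replicate numbers were taken from the labels. Total counts ran from 2521078 to 6981037 per library. Intervals cover counting error only, and floors cover only that of the group with 0 counts.

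Levels are CPM with TMM scaling over all libraries; marker sums are plain CPM. Tests used edgeR 4.0.16 (quasi-likelihood F test, robust, TMM, filterByExpr with a minimum count of 10 and a minimum total of 15) in R 4.3.3, two-sided, with Benjamini-Hochberg adjustment over all genes tested and a threshold of 0.05. The 32 peripheral libraries entered 1 fit, the 18 thymus libraries another, and the arms were compared in a fit per tissue. The SE of a log2 fold change is its size divided by the square root of F. Correlations used log2 CPM with a prior count of 2. The robust option was taken after counts had been seen, and the non-robust fit is an alternative. Alternatives were DESeq2 1.42.0, limma 3.58.1 (voom with quality weights), other scalings and filters, a replicate block, fits of the compared libraries alone, and leaving out libraries. The fit was tested on simulated data. Positions are GENCODE M21's.

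All 7 genes are named in every comparison. From each list, up to 4 called genes per family of comparisons with the smallest adjusted p were to be named, plus genes of a count of 5 or fewer. Not every call under that rule is named, and some DT-labelled and thymic calls are given as counts or left out. Thymic calls of Il33, Il18, Nrg1, Egfr and Erbb4 appear only where the dependence on processing is described. List genes shown in further comparisons, the 26- and 8-library correlations and the motifs were chosen after values or sequences had been seen. The members and lists were chosen with earlier results of these data known. Libraries were not treated as paired by replicate number, since no comparison had a correlation over 0.1 for every number. That rule does not show that pairing was absent. For VAT against liver of the PBS-labelled arm, same numbers gave 0.0848 to 0.337 and different numbers at most 0.0806. For liver against spleen of the DT-labelled arm, same numbers gave 0.0774 to 0.0973 and different numbers at most 0.0167. Ear skin against spleen of the PBS-labelled arm had 0.0632 to 0.112 for same numbers and at most 0.0605 for different ones. VAT against lung of the DT-labelled arm, with 2 shared numbers, had 0.0603 to 0.0783 and at most 0.0462. Most comparisons had no such separation. No library repeats another within counting noise (chi-square per degree of freedom between replicates 3.61 to 66.5).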

Additional observations from a re-analysis of the deposited data

Results flagged for a closer look

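Il1rl1 in VAT of the DT-labelled arm had 1 library far from the others. Library 7 was at 812.6 CPM, and the other 3 lay between 581.9 and 604.7 CPM. The gap to the nearest library was 0.901 of the range of the group. Only groups of 4 libraries could be checked in this way, which gave 14 pairs of a gene and a group, and chance flags about 1 in 20. The same library had the fibroblast marker sum of 555 CPM, with Col3a1 at 294 CPM after TMM scaling, and a macrophage marker sum of 118 CPM. The part of these cells in its Il1rl1 level was not tested.

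The change of Il18rap from day 5 to day 12 differed between P2 and P1 by -5.39 on the log2 scale (edgeR adjusted p = 0.0104, SE 1.08). It was 1 of 40 differences of fold changes tested over these genes in thymus and periphery. P2 went from 3.39, 6.24 and 4.63 CPM to 0.436, 0.208 and 0 CPM, while P1 went from 5.51, 1.24 and 1.1 to 2.73, 6.72 and 5.55 CPM.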

How the results depend on the processing

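Counts of calls over the 7 genes moved by more than 1.5 times in few settings. With only the compared libraries in each fit, 23 tissue pairs without spleen passed against 15. With no filter on low counts, 2 tests of DT- against PBS-labelled passed against 0, Il18r1 and Il1rl1 in VAT. The difference of the age effect between P2 and P1 gave 2 calls against 1 with DESeq2, 2 with limma voom and 2 without both day 49 P2 libraries 2 and 3, where Il1rl1 at day 12 was added. With a replicate block, fitted on the compared libraries, 4 thymic age tests passed against 7. In P2 the calls of Areg and Il1r2 for day 49 against day 5 and of Il18rap and Il1rl1 for day 49 against day 12 were lost; Il1r2 had an adjusted p of 0.0659, and the other 3 did not pass the filter on low counts in those fits. The call of Il18rap for day 49 against day 5 in P1 was added (0.0220). Against spleen the block gave 16 calls in the PBS-labelled arm and 17 in the DT-labelled arm, where Il1r1 in ear skin was lost at the filter and Il18r1 in VAT was added (0.000842). The block gave 20 calls between tissues, where it ended the DT-labelled Il18r1 calls of VAT against ear skin and liver (adjusted p = 0.0653 and 0.122), and 3 between P2 and P1, where Il1rl1 at day 12 was lost at the filter. It could not be fitted for the arms or the differences of fold changes.

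Leaving out 1 library at a time gave 16 to 19 calls against spleen in the PBS-labelled arm, 16 to 18 in the DT-labelled arm, 14 to 16 between tissues, 0 to 0 between the arms, 0 to 0 for their differences, 5 to 8 for age, 4 to 5 for P2 against P1 and 1 to 1 for the age difference. Leaving out a library also decided calls not named in the report: without VAT PBS-labelled library 1, Il1r2 passed for VAT against lung (adjusted p = 0.0440), without VAT DT-labelled library 5, Il18r1 for VAT against lung (0.0419), without VAT DT-labelled library 6 or 8, Il1r1 for VAT against spleen (0.0448 and 0.0470), without day 5 P1 library 3, Il1r2 for day 49 against day 5 (0.0290), without day 12 P2 library 3, Areg for P2 against P1 (0.0436), and without day 49 P2 library 1, Il1rl1 for day 49 P2 against day 5 P2 (0.0234) and against day 49 P1 (0.0210). Called values turned sign or went to 0.00 only for list genes, without day 49 P2 libraries 2 and 3. Day 49 against day 12 in P2 went from 6.61 to 0.00 for Il33, 7.29 to 0.00 for Il18, 4.54 to -3.21 for Egfr and 3.96 to -0.56 for Erbb4. Day 49 against day 5 went from 4.75 to -1.90 for Il33, 4.64 to -2.70 for Il18, 5.32 to -2.70 for Nrg1 and 7.70 to 0.00 for Egfr. P2 against P1 at day 49 went from 4.83 to -1.81 for Il33, 7.98 to 0.00 for Nrg1, 7.70 to 0.00 for Egfr and 3.96 to -0.54 for Erbb4. Apart from lost genes and libraries, the cause of these changes was not tested. Counts were fewest for Il1r1 and for most of the 7 genes in the thymus, and counting error weighs most there.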
